A study of Drosophila simulans and Drosophila sechellia and Drosophila simulans x Drosophila sechellia with 72 samples.

Results

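Expression of 3377 genes was set side by side in larvae of the hybrid between Drosophila sechellia and Drosophila simulans and in larvae of each parental species. A gene was included where both of its parental alleles reached 1 FPKM (sequenced fragments scaled for transcript length and library size) in at least 9 of the 12 hybrid libraries, which 3377 of the 7836 genes of the deposited table did. All 3377 also passed the filter on low values that is used for the tests. The hybrid libraries came from animals that carry a D. sechellia and a D. simulans genome, and the labels name the species in both orders, so that the mother's species is not given. Each of the 3 genotypes had 12 libraries, 3 biological replicates for each of 4 media histories. The histories combine the medium of the previous generation with that of the larvae themselves and are written in that order as SS, SO, OS and OO, where S stands for standard food and O for food to which octanoic acid was added. Each library was made from the homogenate of 10 entire L3 larvae, females according to the labels, and poly(A) RNA was sequenced. The flies were reared at 20 °C under a cycle of 16 h light and 8 h darkness. Nothing in the labels ties a replicate to a separate culture, so p-values measure the spread between these pools. The series also holds 36 adult libraries of the same genotypes.

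Drosophila sechellia lives on the noni fruit, whose octanoic acid is toxic to most other flies, while its close relative D. simulans is a generalist. A hybrid cell reads both genomes with regulatory proteins from both. Where parental alleles and factors act independently of each other, hybrid levels of a transcript lie between those of the parents. Levels like those of a single parent are usually called dominant, and levels beyond both parents transgressive or misexpressed. In crosses of this species group, hybrid females are fertile and hybrid males are sterile. The roles given for genes below are those known from D. melanogaster or shared across animals.

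A hybrid level here is the sum of the FPKM listed for the 2 alleles, and all levels below are FPKM rescaled by the median ratio over 4545 genes above 0 in all 36 larval libraries. Differences are hybrid minus parent on the log2(FPKM + 1) scale, which understates the change of low genes. Summed FPKM as deposited ran from 718845 to 1061820 in hybrid larvae, from 1137760 to 1515240 in D. sechellia larvae and from 442983 to 543443 in D. simulans larvae. Genes listed at 0 numbered from 1093 to 2274 in hybrid libraries, from 407 to 605 in D. sechellia libraries and from 682 to 805 in D. simulans libraries. The SO hybrid library of replicate 1 had the most. Read depth is unknown, and the sources used here do not give how hybrid reads were assigned to alleles, so that hybrid and parental FPKM may not count the same reads per gene. Larval cuticle and serum genes, 4 of 8 listed and all 4 detected in every library, were looked at for the labelled stage. Summed, they ran from 6138 to 47106 FPKM in hybrids, from 5396 to 50308 in D. sechellia and from 8236 to 57656 in D. simulans. In hybrids Lcp1 was called above both parents, Lcp4 below D. sechellia only, and the serum genes Lsp1beta and Lsp1gamma below both. Their hybrid medians were 57.4 and 49.1 FPKM, against 1793 and 2124 in D. sechellia and 5211 and 3143 in D. simulans. Yolk and eggshell markers of adult females, 3 of 6 in the table, summed to at most 0.560 FPKM in hybrids, 0.680 in D. sechellia and 50.9 in D. simulans. The medians of these sums were 0, 0 and 0.350 FPKM. The yolk protein gene Yp1 was listed at 0 in 11, 10 and 1 of the 12 libraries in the same order. In D. simulans it had a median of 0.102 and a highest value of 32.5 FPKM. Salivary glue genes were not analysed here (0 of 6 in the table). Testis markers, 9 of 23 in the table, summed to between 22.5 and 344 FPKM in hybrids, between 132 and 387 in D. sechellia and between 214 and 869.7 in D. simulans, in pools that the labels describe as female. Of these, bam was listed at 0 in 9 hybrid and all 12 D. simulans libraries, and dj, Prosalpha6T and loopin-1 at 0 in none. The part of testis tissue in the results below was not tested. In whole larvae, fewer cells of a type and less RNA per cell cannot be told apart.

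Over the member genes, the listed levels of hybrid larvae lay farther from each parental species than the parents lay from each other. The median absolute difference over the 3377 genes was 0.73 (log2) between hybrid and D. sechellia and 0.83 between hybrid and D. simulans, against 0.50 between the parental species. Genes at least 2-fold apart made up 35.9% and 42.3% of the members in these comparisons and 20.4% between the parents. Of all 7133 genes tested, 66.2% were called different between hybrid and D. sechellia (limma, adjusted p under 0.05). The share was 70.2% between hybrid and D. simulans and 52% between the parents. Members were chosen on hybrid levels, and only hybrid levels are sums of allele FPKM. The part of either in these distances was not tested. Along the first principal component, which held 45.7% of the variance, hybrid libraries had scores from 41.4 to 57.2, D. sechellia libraries from -15.6 to -1.33 and D. simulans libraries from -44.6 to -33.7. The second, with 20.7%, placed hybrids between -1.39 and 19.4, D. sechellia between -42.9 and -23.8 and D. simulans between 6.15 and 30.0. The groups were apart on the first component, and on the second the hybrids overlapped D. simulans. The spread between replicates was also wider in hybrids, with a median SD of 0.52 (log2) over the members, against 0.29 in D. sechellia and 0.33 in D. simulans.

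**Figure D1:**
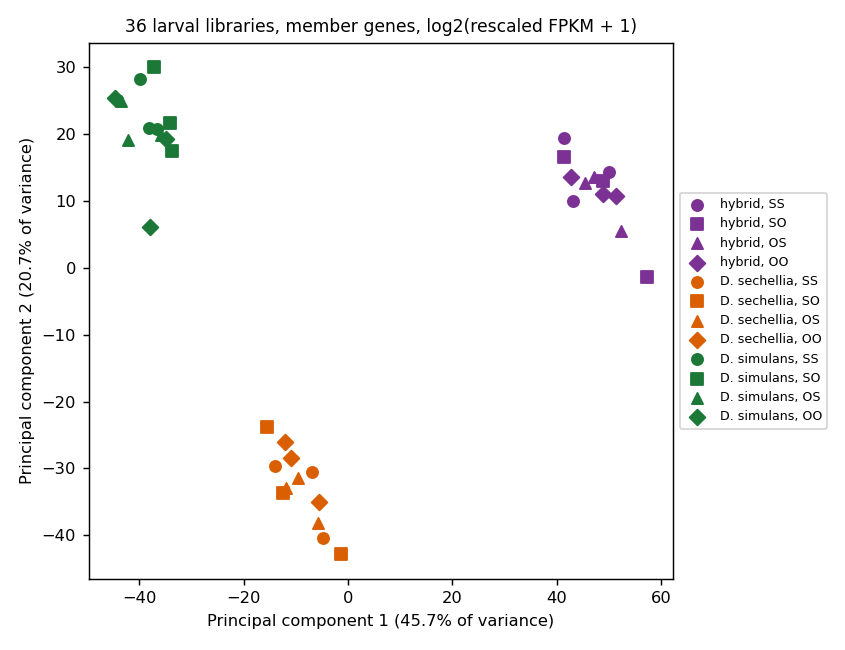
Scores of the 36 larval libraries on the first and second principal components of the member genes, with colours for genotype and symbols for media history. The hybrid libraries stand apart along the first component (41.4 to 57.2), and media histories are mixed within each genotype.

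Tested with limma over all 7133 genes expressed in larvae, hybrid larvae were higher than D. sechellia for 1350 of the 3377 members and lower for 996 (adjusted p under 0.05), where 26.8% and 39.4% of all genes tested were called. Against D. simulans they were higher for 1491 and lower for 1004, where 29.4% and 40.8% of all genes were called. Both comparisons use the same 12 hybrid libraries. Membership itself rests on hybrid levels, so a gene that is low in hybrids was less often a member. The median difference was 0.17 from D. sechellia and 0.22 from D. simulans for members, -0.19 and -0.21 for all genes tested, and -0.52 and -0.60 for the tested genes that were no members. The surplus of higher over lower calls among members is therefore not read as a result. It also depends on the scaling: with FPKM as deposited, 977 members were higher and 1169 lower than D. sechellia, and 1770 higher and 642 lower than D. simulans. That setting moved the median of all genes by -0.21 and 0.29.

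The most frequent classes lay outside the parental range. The hybrids were called above both parents for 1062 members (31.4%, against 19% of all genes tested) and below both for 718 (21.3%, against 29.8%). They were called between the parents for 129 (3.82%, against 4.01%). A further 458 were like D. sechellia, called against D. simulans only and with the parents called apart (13.6%, against 13.1%), and 347 were like D. simulans (10.3%, against 9.86%). Of the rest, 374 had no call in any of the comparisons (13.9% of all genes tested), 218 had a single call with the parents not separated (7.82%), and 71 were called against neither parent although the parents differed (2.51%). Both differences reached 2-fold for 471 of the members above (8.3% of all genes tested) and 354 of those below (18.9%). In 249 members every hybrid library was above all 24 parental libraries (4.12% of all genes tested), and in 244 every one was below (9.35%). For single libraries the shares were computed over members only, which were chosen on hybrid levels, so their balance is not read as a result. Each hybrid library exceeded all 24 parental libraries at 26.1% to 32.4% of the members. Each fell under all of them at 19.9% to 25.3%, with the SO library of replicate 1 at the top of both ranges. Without it, 1079 members were above both and 724 below both.

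**Figure D2:**
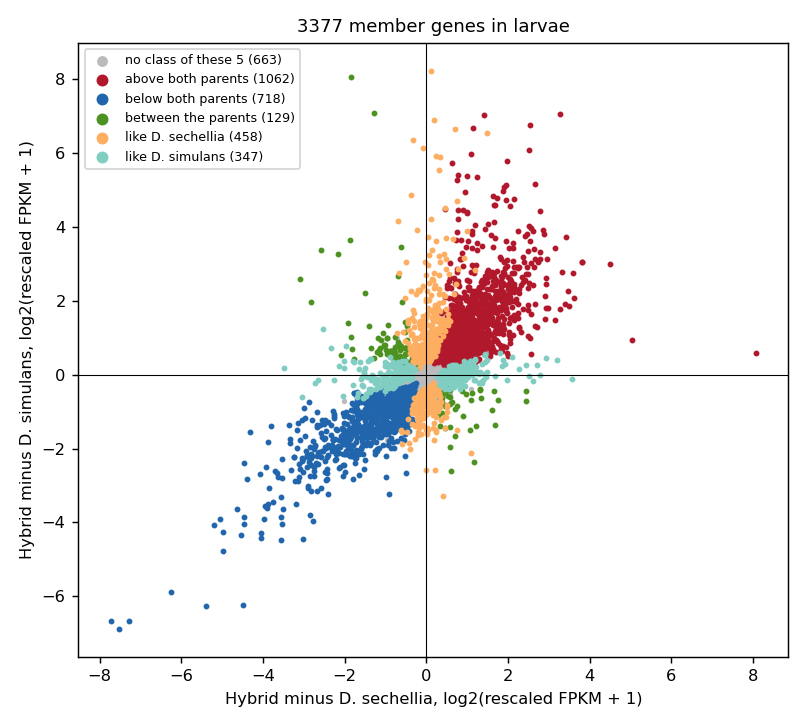
Difference of hybrid larvae from D. sechellia (horizontal) and from D. simulans (vertical) for the 3377 members, on the log2(rescaled FPKM + 1) scale, coloured by class. The 1062 members above both parents fill the upper right and the 718 below both the lower left, with RpL19 at -7.51 and -6.88. The farthest point to the right, at 8.08 and 0.60, is Cap-D3.

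Large single differences also arose where the parents themselves were listed far apart. Cap-D3, a condensin subunit that was picked out after its values were seen, averaged 795.5 ± 181 FPKM in hybrids, 1.88 ± 0.28 in D. sechellia and 535 ± 161 in D. simulans (SD, n = 12 each), and 792 FPKM of the hybrid level came from the D. simulans allele. CG9509, picked in the same way, averaged 1535 ± 861 FPKM in hybrids, 1291 ± 312 in D. sechellia and 3.64 ± 1.07 in D. simulans, with 1533 FPKM from the D. sechellia allele. In each, nearly all of the hybrid level came from the allele of the higher parent. So low a level in 1 parent can be a failed estimate, which was not tested.

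The members above and below both parents had different median levels and shares of unnamed genes. Median parental levels were 22.8 FPKM for members above both and 55.7 for members below both. Over 4 bins of equal size, from low to high parental level, the share above both ran from 42.1% in the lowest through 30.2% and 29.7% to 23.7% in the highest, and the share below both from 4.26% through 20.9% and 24.9% to 35.1%. A gene with little parental signal could be a member only with enough hybrid signal, so these shares follow in part from the rule. Genes known only by a CG number made up 53.2% of the members above both and 27.9% of those below. They made up 52.7% of the members with no call, 45.6% of those like D. sechellia, 38.8% of those between and 36.6% of those like D. simulans. In the table they were 3888 of the 7836 genes. Among all classes, the share was highest above both and lowest below both. The D. sechellia allele supplied a median of 69.2% of hybrid FPKM above both and 61.6% below both, against 65.7% for members with no call. The median was 59.2% between the parents, 66.8% like D. sechellia and 59.3% like D. simulans. It was 67.2% with a single call and 64.3% where only the parents differed. Allele columns of the hybrid libraries summed to 462871 to 788263 FPKM for D. sechellia and 216070 to 322606 for D. simulans, so an even share is not the general level. Genes that met the allele rule in exactly 9 hybrid libraries (327) had a median hybrid level of 10.5 FPKM, and the 275 that just missed it, with 8, had 9.40.

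Where the parents themselves were called at least 2-fold apart, at 681 members, the hybrid mean lay between them for 277, beyond D. sechellia for 276 and beyond D. simulans for 128. Of those between, 162 were nearer D. sechellia and 115 nearer D. simulans on the log2 scale. Of the 129 called apart from both parents, D. sechellia was the higher parent for 79 and D. simulans for 50. Among the 681, D. sechellia was the higher parent for 480 and D. simulans for 201. Members were chosen on hybrid levels, and the shares over all genes tested were not computed for the 681. The balance of these counts is therefore not read as a result. A class name carries no proof of likeness: the 95% interval of the difference stayed within 1.5-fold of the named parent for 250 of the 458 genes like D. sechellia and for 200 of the 347 like D. simulans.

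Among named genes, the members farthest above both parents included a detoxification enzyme, an immune peptide and a cuticle protein. GstE6 ranged from 303 to 710.3 FPKM (median 394) in hybrid larvae, from 23.1 to 72.3 (median 39.4) in D. sechellia larvae and from 9.30 to 125 (median 30.8) in D. simulans larvae. This epsilon-class glutathione transferase conjugates glutathione to toxic compounds, and every hybrid library exceeded every parental one. The differences were 3.41 from D. sechellia and 3.72 from D. simulans (SE 0.21 each, adjusted p = 2.79e-14 and 3.49e-15), and 15.8% of the hybrid level came from the D. sechellia allele. IM2 ranged from 5278 to 132531 FPKM (median 20368) in hybrid larvae, from 717 to 5316 (median 2682) in D. sechellia larvae and from 36.8 to 882 (median 171) in D. simulans larvae. IM2, a short peptide secreted into the hemolymph on immune challenge, had hybrid libraries that all exceeded D. simulans and a range that overlapped that of D. sechellia. It differed by 3.28 from D. sechellia and 7.05 from D. simulans (SE 0.44 each, adjusted p = 2.00e-07 and 4.19e-14), with 98.5% of the hybrid level from the D. sechellia allele. Twdlbeta ranged from 2.05 to 203 FPKM (median 52.4) in hybrid larvae, from 0 to 16.8 (median 0) in D. sechellia larvae and from 1.15 to 8.17 (median 4.84) in D. simulans larvae. This Tweedle-family cuticle gene was at 0 in most D. sechellia libraries, and its hybrid range overlapped those of both parents. Its differences were 4.51 from D. sechellia and 2.99 from D. simulans (SE 0.52 each, adjusted p = 1.34e-08 and 9.94e-06).

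CDK2AP1 ranged from 71.5 to 219.6 FPKM (median 132) in hybrid larvae, from 11.8 to 21.1 (median 14.9) in D. sechellia larvae and from 10.5 to 17.5 (median 13.7) in D. simulans larvae. The fly relative of a CDK2-associated protein thus had all hybrid libraries above all parental ones, with differences of 2.97 from D. sechellia and 3.12 from D. simulans (SE 0.15 each, adjusted p = 3.57e-16 and 1.05e-16). mRpL21 ranged from 228 to 889.9 FPKM (median 427) in hybrid larvae, from 32.3 to 88.4 (median 58.1) in D. sechellia larvae and from 19.4 to 66.2 (median 27.2) in D. simulans larvae. This protein of the large mitochondrial ribosomal subunit also showed no overlap, with differences of 2.88 from D. sechellia and 3.81 from D. simulans (SE 0.22 each, adjusted p = 2.90e-12 and 5.70e-15). HSPC300 ranged from 869.8 to 5271 FPKM (median 2452) in hybrid larvae, from 211 to 699 (median 362) in D. sechellia larvae and from 53.5 to 297 (median 111) in D. simulans larvae. HSPC300 is a small subunit of the actin-regulating WAVE complex, and again no hybrid library overlapped a parental one. It differed by 2.79 from D. sechellia and 4.43 from D. simulans (SE 0.27 each, adjusted p = 4.72e-10 and 2.63e-14). The D. sechellia allele made up 95.5% of the hybrid level of CDK2AP1, 77.1% of that of mRpL21 and 88.0% of that of HSPC300.

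The members farthest below both parents were genes that most cells transcribe at high levels, and genes of muscle and fat body. RpL19 ranged from 7.72 to 50.8 FPKM (median 26.8) in hybrid larvae, from 3507 to 6247 (median 4305) in D. sechellia larvae and from 2173 to 4742 (median 2945) in D. simulans larvae. This component of the large ribosomal subunit was thus listed far lower in every hybrid library, with differences of -7.51 from D. sechellia and -6.88 from D. simulans (SE 0.19 each, adjusted p = 1.09e-22 and 7.38e-22). RpL13A ranged from 8.76 to 59.5 FPKM (median 30.4) in hybrid larvae, from 2993 to 6421 (median 4083) in D. sechellia larvae and from 1847 to 4265 (median 2580.2) in D. simulans larvae. RpL7 ranged from 22.1 to 87.7 FPKM (median 39.6) in hybrid larvae, from 2486 to 4353 (median 2949) in D. sechellia larvae and from 1769 to 3944 (median 2427) in D. simulans larvae. For these other large-subunit proteins too, no hybrid library reached a parental one. RpL13A differed by -7.28 from D. sechellia and -6.66 from D. simulans (SE 0.22 each, adjusted p = 4.67e-21 and 3.08e-20) and RpL7 by -6.26 from D. sechellia and -5.89 from D. simulans (SE 0.16 each, adjusted p = 1.05e-22 and 4.15e-22). Cyp1 ranged from 14.01 to 63.0 FPKM (median 48.1) in hybrid larvae, from 1197 to 1608 (median 1359.7) in D. sechellia larvae and from 1069 to 1696 (median 1165) in D. simulans larvae. Cyp1 encodes a cyclophilin, a protein-folding isomerase, and no libraries overlapped. It differed by -4.98 from D. sechellia and -4.77 from D. simulans (SE 0.14 each, adjusted p = 1.07e-21 and 2.31e-21).

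Mlc2 ranged from 1.91 to 137 FPKM (median 24.3) in hybrid larvae, from 1245 to 14233 (median 4936) in D. sechellia larvae and from 227 to 12039.8 (median 2733) in D. simulans larvae. The regulatory light chain of muscle myosin varied widely between pools of each genotype, yet the highest hybrid library stayed under the lowest parental one. Its differences were -7.73 from D. sechellia and -6.68 from D. simulans (SE 0.55 each, adjusted p = 8.22e-13 and 1.55e-11). Lsp1gamma ranged from 18.0 to 201 FPKM (median 49.1) in hybrid larvae, from 991 to 4385 (median 2124) in D. sechellia larvae and from 1726 to 10025 (median 3143) in D. simulans larvae. Lsp1gamma is a subunit of a larval serum storage protein made by the fat body, and its groups did not overlap. It differed by -5.38 from D. sechellia and -6.26 from D. simulans (SE 0.32 each, adjusted p = 1.58e-14 and 4.94e-16). Both alleles were listed in the hybrids for each of these 6 genes, with 44.4% (Cyp1) to 78.2% (RpL19) of the level from D. sechellia.

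Few members were separated from both parents and between them. Amy-p ranged from 10.6 to 94.5 FPKM (median 45.6) in hybrid larvae, from 141 to 379 (median 234) in D. sechellia larvae and from 0.986 to 18.3 (median 2.44) in D. simulans larvae. Amy-d ranged from 12.2 to 106 FPKM (median 37.2) in hybrid larvae, from 99.8 to 263 (median 154) in D. sechellia larvae and from 0.986 to 18.3 (median 2.44) in D. simulans larvae. The D. simulans values of this pair of neighbouring amylase genes, which digest starch, were identical in every library, so the copies are not resolved there. Hybrid libraries of Amy-p were all below D. sechellia and overlapped the highest D. simulans library, and those of Amy-d overlapped both parents. Amy-p differed by -2.58 from D. sechellia and 3.38 from D. simulans (SE 0.29 each, adjusted p = 1.21e-08 and 5.16e-11) and Amy-d by -2.16 from D. sechellia and 3.26 from D. simulans (SE 0.31 each, adjusted p = 5.66e-07 and 2.57e-10). Ggamma1 ranged from 238 to 2354 FPKM (median 535) in hybrid larvae, from 1449 to 2288 (median 1806) in D. sechellia larvae and from 129.7 to 162 (median 139) in D. simulans larvae. This G protein gamma subunit was above every D. simulans library, and the highest hybrid libraries reached D. sechellia. It differed by -1.51 from D. sechellia and 2.20 from D. simulans (SE 0.19 each, adjusted p = 7.76e-08 and 4.72e-11).

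For 2 of the 5 named genes of this class D. simulans was the higher parent. mtd ranged from 22.7 to 96.4 FPKM (median 35.8) in hybrid larvae, from 7.78 to 15.8 (median 11.7) in D. sechellia larvae and from 53.3 to 126 (median 107) in D. simulans larvae. The gene mustard (mtd), which carries a TLDc domain, was above every D. sechellia library, and its range overlapped that of D. simulans. Its differences were 1.69 from D. sechellia and -1.35 from D. simulans (SE 0.17 each, adjusted p = 9.20e-10 and 4.92e-08), and 10.3% of the hybrid level came from the D. sechellia allele. Mps1 ranged from 2.29 to 16.0 FPKM (median 7.60) in hybrid larvae, from 1.76 to 3.88 (median 2.63) in D. sechellia larvae and from 19.4 to 82.4 (median 39.6) in D. simulans larvae. Mps1 is a kinase of the spindle checkpoint, and its hybrid libraries were all below D. simulans and overlapped D. sechellia. It differed by 1.16 from D. sechellia and -2.37 from D. simulans (SE 0.22 each, adjusted p = 3.75e-05 and 1.85e-10).

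Genes like D. sechellia were led by another glutathione transferase. GstE3 ranged from 106 to 391 FPKM (median 227) in hybrid larvae, from 128 to 484 (median 235) in D. sechellia larvae and from 0.946 to 6.69 (median 1.92) in D. simulans larvae. The hybrid libraries shared the D. sechellia range and stood far above every D. simulans library. The difference was -0.08 from D. sechellia (95% interval -0.55 to 0.38) and 6.13 ± 0.23 (SE) from D. simulans (adjusted p = 3.39e-19). wbl ranged from 179 to 577 FPKM (median 233) in hybrid larvae, from 141 to 462 (median 235) in D. sechellia larvae and from 22.7 to 91.6 (median 58.1) in D. simulans larvae. Non2 ranged from 327 to 965 FPKM (median 636) in hybrid larvae, from 413 to 701 (median 577) in D. sechellia larvae and from 165 to 248 (median 188) in D. simulans larvae. The hybrid libraries of windbeutel (wbl), a chaperone of the endoplasmic reticulum, and of Non2 all exceeded D. simulans and overlapped D. sechellia. Their differences from D. sechellia were 0.03 (95% interval -0.45 to 0.50) and 0.21 (-0.08 to 0.49), and from D. simulans 2.26 and 1.69. Without the OO hybrid library of replicate 3, Non2 was called above D. sechellia (0.30, adjusted p = 0.0392). Patronin ranged from 2.85 to 9.495 FPKM (median 5.38) in hybrid larvae, from 4.70 to 9.46 (median 7.36) in D. sechellia larvae and from 8.92 to 34.3 (median 21.5) in D. simulans larvae. Cyt-b5-r ranged from 71.9 to 242 FPKM (median 129) in hybrid larvae, from 86.2 to 172 (median 129) in D. sechellia larvae and from 12.2 to 121 (median 41.6) in D. simulans larvae. The ranges of Patronin, a protein that caps microtubule minus ends, and of Cyt-b5-r, a cytochrome b5-related enzyme, overlapped those of both parents. They differed from D. sechellia by -0.21 (95% interval -0.54 to 0.11) and 0.01 (-0.47 to 0.48), and from D. simulans by -1.64 and 1.64.

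Genes like D. simulans included a membrane protein and enzymes of DNA breakdown and glutathione synthesis. Tsp42Ek ranged from 152 to 349 FPKM (median 243) in hybrid larvae, from 27.9 to 51.98 (median 33.7) in D. sechellia larvae and from 162 to 452 (median 289) in D. simulans larvae. Hybrid libraries of this tetraspanin were all above D. sechellia and overlapped D. simulans. The difference from D. sechellia was 2.62 ± 0.17 (SE, adjusted p = 6.99e-14), and from D. simulans -0.18 (95% interval -0.52 to 0.16). DNaseII ranged from 66.9 to 201 FPKM (median 133) in hybrid larvae, from 10.3 to 42.0 (median 19.7) in D. sechellia larvae and from 61.7 to 502 (median 117) in D. simulans larvae. Gclc ranged from 7.19 to 41.1 FPKM (median 17.7) in hybrid larvae, from 49.0 to 97.8 (median 85.8) in D. sechellia larvae and from 13.1 to 24.4 (median 18.1) in D. simulans larvae. DNaseII, a lysosomal nuclease, was above every D. sechellia library in hybrids, and Gclc, the catalytic subunit of the enzyme that starts glutathione synthesis, was below every one. Their differences were 2.52 and -2.25 from D. sechellia, and -0.03 (95% interval -0.49 to 0.44) and -0.15 (-0.54 to 0.25) from D. simulans. Bsg ranged from 97.7 to 272 FPKM (median 204) in hybrid larvae, from 35.3 to 69.3 (median 52.2) in D. sechellia larvae and from 115 to 201 (median 165) in D. simulans larvae. lap ranged from 27.1 to 57.5 FPKM (median 38.2) in hybrid larvae, from 7.47 to 14.7 (median 11.4) in D. sechellia larvae and from 29.9 to 49.0 (median 37.8) in D. simulans larvae. Basigin (Bsg), a cell-surface glycoprotein, and lap, an adaptor of clathrin coats, stood above every D. sechellia library and overlapped D. simulans. They differed from D. sechellia by 1.85 and 1.67, and from D. simulans by 0.24 (95% interval -0.07 to 0.55) and -0.05 (-0.28 to 0.19). The likeness of lap was not kept by all scalings, since it was called above D. simulans with the alleles rescaled separately (0.29, adjusted p = 0.0199) and below with factors from member genes (-0.28, adjusted p = 0.0359). Bsg was called above D. simulans with FPKM as deposited (0.61) and with the alleles rescaled separately (0.52), and Tsp42Ek below it with factors from member genes (-0.43).

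**Figure D3:**
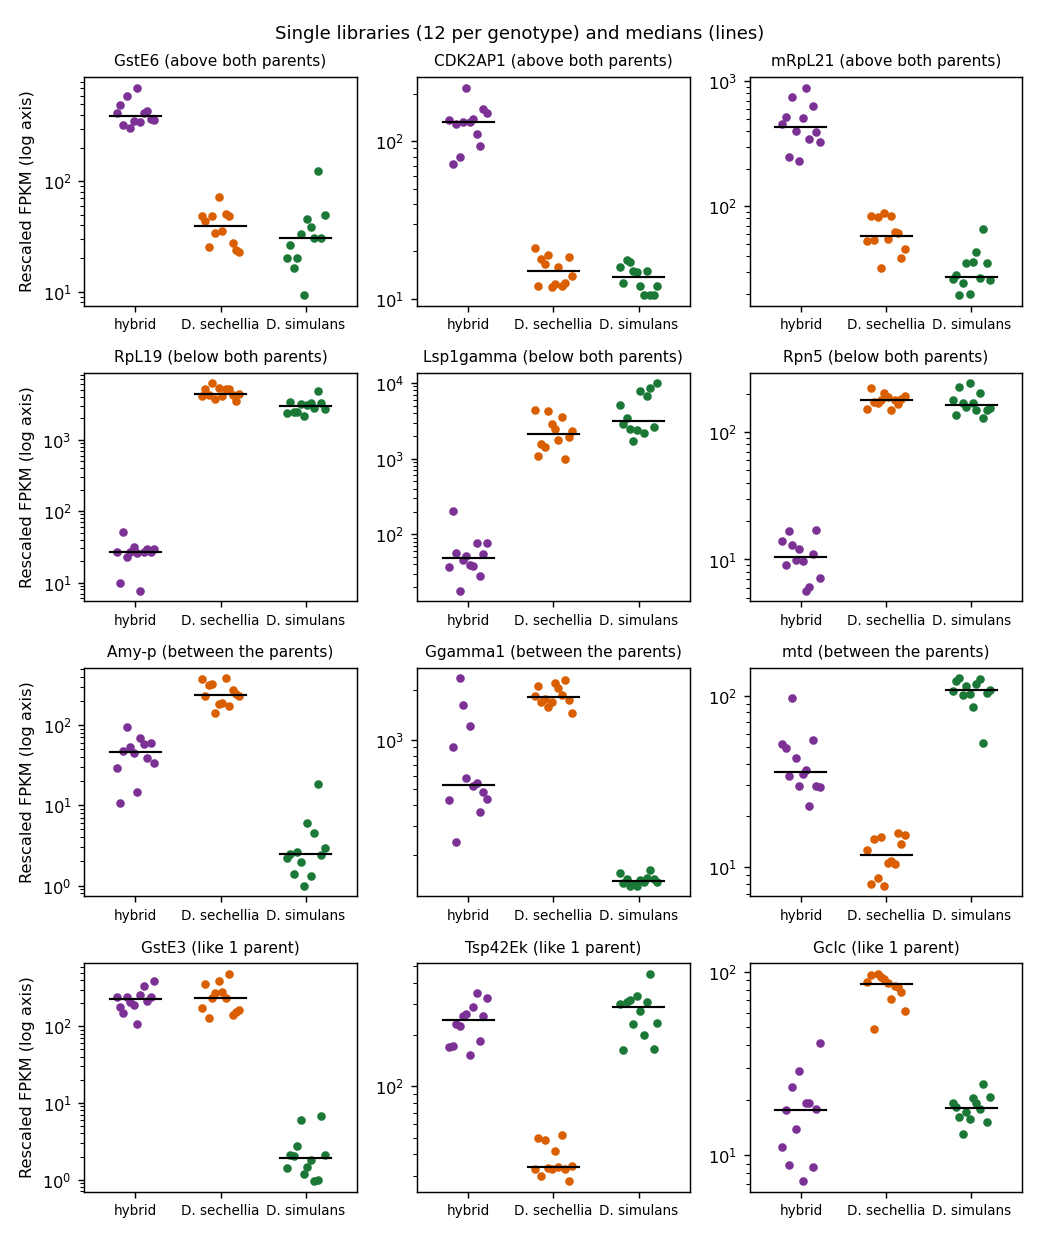
Rescaled FPKM of 12 named genes in each of the 12 libraries of hybrid, D. sechellia and D. simulans larvae (points, log axis) with medians (lines). In the upper rows no hybrid library overlaps a parental one, in the next row hybrid medians lie between the parents, and in the last row GstE3 sits with D. sechellia and Tsp42Ek and Gclc with D. simulans.

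Gene lists were then read against all genes tested, whose median difference was -0.19 from D. sechellia and -0.21 from D. simulans and of which 19% stood above both parents and 29.8% below both. Since membership rests on hybrid levels, the median over all tested genes of a list is given beside that over its members. Among cytosolic ribosomal proteins, 40 of 52 genes in the table were members, of which 3 stood above both parents and 29 below both. Median differences were -1.97 from D. sechellia and -1.12 from D. simulans over the members, and -2.65 and -1.59 over all 52 genes of the list tested. The remaining 8 comprised 3 like D. sechellia, 3 like D. simulans and 2 between the parents. The proteins of a ribosome are made in equal numbers, but their transcripts were spread over a wide range in the hybrids: differences from D. sechellia ran from -7.51 (RpL19) to 1.25 (RpL22-like). At 10 of the 40 genes, hybrids were at least 10-fold below both parents, and at 18 no hybrid library overlapped a parental one. RpL19, for example, averaged 26.2 ± 10.8 FPKM in hybrids, 4595 ± 785 in D. sechellia and 2989 ± 682 in D. simulans (SD, n = 12 each). RpS7 averaged 145 ± 37.9, 5382 ± 1353 and 2454 ± 591 in the same order, and RpL4 79.3 ± 21.7, 919.7 ± 114 and 1746 ± 303. RpS7 and RpL4 were picked after their values were seen. RpL22-like, a paralogue best known from the male germ line, was above both parents and had medians of 47.4 FPKM in hybrid larvae, 17.4 in D. sechellia larvae and 17.1 in D. simulans larvae. These are levels as listed, and the part that read assignment to alleles plays in them was not tested.

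**Figure D4:**
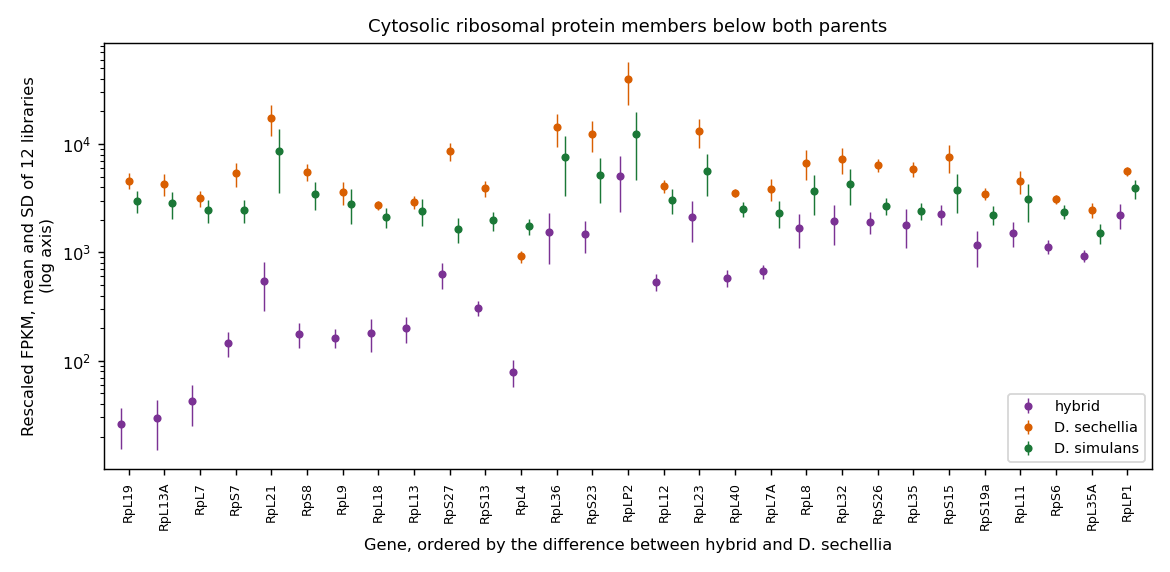
Levels of the 29 cytosolic ribosomal protein members below both parents in hybrid, D. sechellia and D. simulans larvae (mean and SD of 12 libraries, log axis), ordered by the difference between hybrid and D. sechellia. Hybrid points lie far below both parental points at the left, where RpL19 averages 26.2 FPKM in hybrids, and nearer to them at the right, where RpLP1 averages 2214 FPKM.

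Among mitochondrial ribosomal proteins, 29 of 44 genes in the table were members, of which 12 stood above both parents and 3 below both. Their median difference was 0.35 from D. sechellia and 1.05 from D. simulans over the members, and -0.27 and 0.65 over all 44 genes of the list tested. Examples above both were mRpL21, given above, and mRpS28, with medians of 384 FPKM in hybrid larvae, 81.5 in D. sechellia larvae and 30.9 in D. simulans larvae. No hybrid library of mRpS28 overlapped a parental one, and its differences were 2.13 from D. sechellia and 3.43 from D. simulans. Below both were mRpL49, with medians of 19.5 FPKM in hybrid larvae, 58.3 in D. sechellia larvae and 33.9 in D. simulans larvae, and mRpS7, with 37.2 FPKM in hybrid larvae, 45.6 in D. sechellia larvae and 48.2 in D. simulans larvae. The call of mRpS7 against D. simulans was lost with FPKM as deposited (-0.09, adjusted p = 0.602), and both calls with the SS libraries alone (-0.08 and -0.16). Among translation factors, 10 of 16 genes in the table were members, of which 4 stood above both parents and 4 below both. Differences had a median of -0.31 from D. sechellia and -0.32 from D. simulans over the members (0.05 from D. simulans with FPKM as deposited), and -0.54 and -0.33 over all 16 genes of the list tested. eIF-5A, which helps ribosomes past difficult peptide bonds, had medians of 4875 FPKM in hybrid larvae, 2696 in D. sechellia larvae and 2678 in D. simulans larvae, and its hybrid libraries exceeded all parental ones. Above both also stood eIF2B-alpha, a subunit of an exchange factor of initiation, with differences of 1.07 from D. sechellia and 1.62 from D. simulans. The helicase eIF-4a was below both in every library, with medians of 543 FPKM in hybrid larvae, 2067 in D. sechellia larvae and 1605 in D. simulans larvae, and the release factor eRF1 too, with 103 FPKM in hybrid larvae, 214 in D. sechellia larvae and 185 in D. simulans larvae.

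Among aminoacyl-tRNA synthetases, which load tRNAs with amino acids, 15 of 18 genes in the table were members, of which 7 stood above both parents and 5 below both. As a median, the difference was 0.43 from D. sechellia and 0.22 from D. simulans over the members (-0.01 from D. simulans with factors from member genes), and 0.09 and 0.08 over all 18 genes of the list tested. The 7 above both included 5 mitochondrial enzymes, AlaRS-m, ArgRS-m, LeuRS-m, PheRS-m and ProRS-m, while AspRS-m was below both. Of the cytosolic enzymes, AspRS had medians of 227 FPKM in hybrid larvae, 112 in D. sechellia larvae and 129 in D. simulans larvae, and AlaRS 94.99 FPKM in hybrid larvae, 65.4 in D. sechellia larvae and 49.7 in D. simulans larvae, both without overlap. AsnRS was below both parents, with medians of 15.8 FPKM in hybrid larvae, 133 in D. sechellia larvae and 68.6 in D. simulans larvae, and so was GlnRS, with 6.91 FPKM in hybrid larvae, 25.5 in D. sechellia larvae and 25.6 in D. simulans larvae. Among ribosome biogenesis factors, 13 of 18 genes in the table were members, of which 2 stood above both parents and 6 below both. The median of the differences was -0.997 from D. sechellia and -0.37 from D. simulans over the members, and -0.92 and -0.40 over all 18 genes of the list tested. Fib, the methyltransferase fibrillarin of the nucleolus, had medians of 8.16 FPKM in hybrid larvae, 97.8 in D. sechellia larvae and 59.3 in D. simulans larvae. Nop60B, a pseudouridine synthase, had 14.4 FPKM in hybrid larvae, 91.4 in D. sechellia larvae and 62.2 in D. simulans larvae. Hybrid libraries of both were under all parental ones.

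Among proteasome subunits, 20 of 23 genes in the table were members, of which 2 stood above both parents and 10 below both. The median difference was -0.41 from D. sechellia and -0.42 from D. simulans over the members, and -0.41 and -0.74 over all 23 genes of the list tested. Rpn5, of the regulatory lid, had medians of 10.5 FPKM in hybrid larvae, 178 in D. sechellia larvae and 163 in D. simulans larvae, and Prosbeta4, of the catalytic core, 45.3 FPKM in hybrid larvae, 624 in D. sechellia larvae and 542 in D. simulans larvae. No hybrid library of either reached a parental one, and the differences of Rpn5 were -3.97 from D. sechellia and -3.90 from D. simulans (SE 0.13 each, adjusted p = 2.01e-20 and 2.79e-20). Among protein folding chaperones, 5 of 7 genes in the table were members, of which 1 stood above both parents and 3 below both. Median differences were -1.02 from D. sechellia and -1.12 from D. simulans over the members, and -1.02 and -1.12 over all 7 genes of the list tested. In the endoplasmic reticulum, the disulfide isomerase ERp60 had medians of 94.9 FPKM in hybrid larvae, 459.6 in D. sechellia larvae and 382 in D. simulans larvae and the Hsp90 relative Gp93 22.4 FPKM in hybrid larvae, 155 in D. sechellia larvae and 131 in D. simulans larvae. Among genes of vesicle traffic and secretion, 18 of 22 genes in the table were members, of which 4 stood above both parents and 8 below both. Their median difference was -0.67 from D. sechellia and -0.45 from D. simulans over the members, and -1.65 and -0.87 over all 22 genes of the list tested. The translocon subunit Sec61alpha had medians of 63.2 FPKM in hybrid larvae, 350.0 in D. sechellia larvae and 318 in D. simulans larvae and the coatomer subunit beta'COP 9.23 FPKM in hybrid larvae, 64.0 in D. sechellia larvae and 58.8 in D. simulans larvae, without overlap. OstDelta, of the complex that attaches sugars to proteins, was above both, with differences of 0.84 from D. sechellia and 0.74 from D. simulans, and Srp54k, of the signal recognition particle, with differences of 0.63 from D. sechellia and 0.58 from D. simulans.

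Among respiratory chain and ATP synthase genes, 31 of 47 genes in the table were members, of which 6 stood above both parents and 11 below both. Differences had a median of -0.42 from D. sechellia and 0.17 from D. simulans over the members (-0.06 and -0.08 from D. simulans with the alleles rescaled separately and with factors from member genes), and -1.54 and -0.54 over all 47 genes of the list tested. All 6 members above both belong to complex I. ND-B14, for example, had medians of 632 FPKM in hybrid larvae, 160.2 in D. sechellia larvae and 126 in D. simulans larvae, without overlap, and ND-B14.7 612 FPKM in hybrid larvae, 328 in D. sechellia larvae and 207 in D. simulans larvae. Other complex I subunits were below both. RFeSP, the Rieske protein of complex III, had medians of 28.1 FPKM in hybrid larvae, 168 in D. sechellia larvae and 164 in D. simulans larvae, and ATPsynF, of the ATP synthase, 66.7 FPKM in hybrid larvae, 739.6 in D. sechellia larvae and 510.0 in D. simulans larvae. Among glycolysis and sugar metabolism genes, 8 of 11 genes in the table were members, of which 1 stood above both parents and 5 below both. As a median, the difference was -1.45 from D. sechellia and -1.54 from D. simulans over the members, and -0.84 and -2.16 over all 11 genes of the list tested. Eno, the enolase, had medians of 20.2 FPKM in hybrid larvae, 406 in D. sechellia larvae and 543 in D. simulans larvae, and Tpi, the triose phosphate isomerase, 49.0 FPKM in hybrid larvae, 446 in D. sechellia larvae and 569.7 in D. simulans larvae. Their differences were -4.05 from D. sechellia and -4.43 from D. simulans (SE 0.26 each, adjusted p = 1.38e-13 and 1.69e-14) and -3.18 from D. sechellia and -3.49 from D. simulans (SE 0.30 each, adjusted p = 3.04e-10 and 4.04e-11), and no libraries overlapped. In the TCA cycle, 5 of 5 genes in the table were members, of which 0 stood above both parents and 2 below both. The median of the differences was -0.29 from D. sechellia and -0.63 from D. simulans over the members. In fatty acid oxidation, 9 of 12 genes in the table were members, of which 2 stood above both parents and 2 below both. The median difference was 0.18 from D. sechellia and 0.29 from D. simulans over the members (-0.08 from D. sechellia with FPKM as deposited), and -0.09 and -0.12 over all 12 genes of the list tested. In lipid synthesis and storage, 8 of 11 genes in the table were members, of which 2 stood above both parents and 3 below both. Median differences were -0.09 from D. sechellia and -0.51 from D. simulans over the members, and -0.53 and -0.68 over all 11 genes of the list tested. AcCoAS, the acetyl-CoA synthetase, had medians of 8.69 FPKM in hybrid larvae, 37.2 in D. sechellia larvae and 36.4 in D. simulans larvae, and Acsl, which activates long-chain fatty acids, 17.6 FPKM in hybrid larvae, 23.8 in D. sechellia larvae and 41.7 in D. simulans larvae.

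Among glutathione transferases, 9 of 14 genes in the table were members, of which 3 stood above both parents and 3 below both. Their median difference was -0.71 from D. sechellia and -0.06 from D. simulans over the members (0.31 and 0.09 from D. simulans with FPKM as deposited and with the alleles rescaled separately), and -0.25 and 0.10 over all 14 genes of the list tested. GstE1, like GstE6, was above both, with medians of 210.2 FPKM in hybrid larvae, 22.8 in D. sechellia larvae and 70.3 in D. simulans larvae. GstE12 was below every parental library, with medians of 183 FPKM in hybrid larvae, 559 in D. sechellia larvae and 466 in D. simulans larvae, and GstT4 was below both, with differences of -1.59 from D. sechellia and -1.99 from D. simulans. Among cytochrome P450 genes, 15 of 47 genes in the table were members, of which 6 stood above both parents and 2 below both. Differences had a median of 0.89 from D. sechellia and 0.13 from D. simulans over the members (-0.09 from D. simulans with factors from member genes), and -0.01 and 0.09 over all 44 genes of the list tested. Cyp12d1-d, a gene known to respond to xenobiotics, had medians of 114 FPKM in hybrid larvae, 30.1 in D. sechellia larvae and 14.7 in D. simulans larvae, and Cyp310a1 69.3 FPKM in hybrid larvae, 18.5 in D. sechellia larvae and 6.70 in D. simulans larvae. Among UDP-glycosyltransferases and esterases, 11 of 17 genes in the table were members, of which 2 stood above both parents and 1 below both. As a median, the difference was 0.03 from D. sechellia and 0.62 from D. simulans over the members (-0.22, -0.03 and -0.11 from D. sechellia with FPKM as deposited, with the alleles rescaled separately and with factors from member genes), and 0.21 and 0.60 over all 16 genes of the list tested. Among oxidative stress genes, 9 of 11 genes in the table were members, of which 3 stood above both parents and 3 below both. The median of the differences was -0.33 from D. sechellia and 0.27 from D. simulans over the members, and -0.79 and -0.15 over all 11 genes of the list tested. The peroxiredoxins Prx6005 and Prx3 were above both, with differences of 1.63 from D. sechellia and 2.71 from D. simulans, and of 1.37 from D. sechellia and 1.14 from D. simulans. PHGPx, a glutathione peroxidase, had medians of 38.02 FPKM in hybrid larvae, 262 in D. sechellia larvae and 660.4 in D. simulans larvae, without overlap, and Sod3, a secreted superoxide dismutase, 86.1 FPKM in hybrid larvae, 184 in D. sechellia larvae and 153 in D. simulans larvae. The call of Sod3 against D. simulans was lost with FPKM as deposited (-0.36, adjusted p = 0.0971).

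Among immune recognition and signalling genes, 20 of 28 genes in the table were members, of which 1 stood above both parents and 6 below both. The median difference was -0.28 from D. sechellia and -0.31 from D. simulans over the members (0.06 from D. simulans with FPKM as deposited), and -0.18 and -0.39 over all 27 genes of the list tested. PGRP-SC1a, an amidase that degrades peptidoglycan, ranged from 3.42 to 126 FPKM in hybrids, from 175 to 2501 in D. sechellia and from 81.9 to 2820.4 in D. simulans. Hybrid libraries were below every D. sechellia library and overlapped D. simulans. Its differences were -4.47 from D. sechellia and -3.85 from D. simulans (SE 0.52 each, adjusted p = 1.65e-08 and 1.99e-07). The Toll pathway inhibitor cact was below both, with differences of -0.95 from D. sechellia and -1.04 from D. simulans. Among antimicrobial peptides, 4 of 19 genes in the table were members, of which 1 stood above both parents and 0 below both. Median differences were -0.18 from D. sechellia and 3.21 from D. simulans over the members, and -1.41 and 0.79 over all 19 genes of the list tested. The member above both was IM2, and 2 attacins, AttA and AttB, were like D. sechellia. Near-identical copies such as these attacins, the amylases, PGRP-SC1a, Cyp12d1-d and RpS14b can share reads with their partners, so their levels are uncertain. Among cuticle proteins, 14 of 89 genes in the table were members, of which 6 stood above both parents and 1 below both. Their median difference was 0.50 from D. sechellia and 0.94 from D. simulans over the members, and -0.49 and -0.61 over all 58 genes of the list tested. Besides Twdlbeta, Cpr49Ab was above both, with medians of 15.2 FPKM in hybrid larvae, 0.795 in D. sechellia larvae and 2.57 in D. simulans larvae, but neither of its calls held in the SS libraries alone (1.72 and 0.47, adjusted p = 0.0598 and 0.583). Among genes of chitin and the peritrophic matrix, 12 of 26 genes in the table were members, of which 2 stood above both parents and 4 below both. Differences had a median of 0.31 from D. sechellia and -0.02 from D. simulans over the members (0.35 and 0.12 from D. simulans with FPKM as deposited and with the alleles rescaled separately), and -0.48 and -0.85 over all 25 genes of the list tested. Idgf2, a secreted chitinase relative, had medians of 83.4 FPKM in hybrid larvae, 158 in D. sechellia larvae and 173 in D. simulans larvae, and the chitin deacetylase serp 22.01 FPKM in hybrid larvae, 33.2 in D. sechellia larvae and 36.4 in D. simulans larvae. The call of serp against D. simulans was lost with FPKM as deposited (-0.48, adjusted p = 0.103).

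Among genes of larval serum, fat body and hemolymph, 13 of 14 genes in the table were members, of which 3 stood above both parents and 5 below both. As a median, the difference was -0.02 from D. sechellia and -0.50 from D. simulans over the members, and -0.09 and -0.39 over all 14 genes of the list tested. Lsp1beta, the serum protein partner of Lsp1gamma, had medians of 57.4 FPKM in hybrid larvae, 1793 in D. sechellia larvae and 5211 in D. simulans larvae, without overlap. Cht2 and the lipophorin receptor LpR2 were above both, with differences of 1.002 from D. sechellia and 1.69 from D. simulans, and of 1.21 from D. sechellia and 0.39 from D. simulans. The call of LpR2 against D. simulans was lost with the alleles rescaled separately (0.27, adjusted p = 0.0586) and with factors from member genes (0.17, adjusted p = 0.289). Among V-ATPase and renal transport genes, 14 of 23 genes in the table were members, of which 1 stood above both parents and 3 below both. The median of the differences was 0.03 from D. sechellia and 0.01 from D. simulans over the members (-0.20 and -0.10 from D. sechellia with FPKM as deposited and with factors from member genes and -0.02 and -0.21 from D. simulans with the alleles rescaled separately and with factors from member genes), and -0.27 and -0.25 over all 23 genes of the list tested. Vha44 was below both, with differences of -1.16 from D. sechellia and -1.69 from D. simulans and VhaSFD with -0.53 from D. sechellia and -1.28 from D. simulans. Among muscle contraction genes, 4 of 14 genes in the table were members, of which 0 stood above both parents and 2 below both. The median difference was -0.30 from D. sechellia and -1.59 from D. simulans over the members, and -0.59 and -2.26 over all 13 genes of the list tested.

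Among mitosis and cell cycle genes, 24 of 40 genes in the table were members, of which 8 stood above both parents and 5 below both. Median differences were 0.24 from D. sechellia and -0.06 from D. simulans over the members (0.26 from D. simulans with FPKM as deposited), and -0.09 and -0.17 over all 40 genes of the list tested. The kinase aurB, of the chromosomal passenger complex, had medians of 86.9 FPKM in hybrid larvae, 33.2 in D. sechellia larvae and 21.6 in D. simulans larvae, and Det 166 FPKM in hybrid larvae, 42.0 in D. sechellia larvae and 23.4 in D. simulans larvae. Hybrid libraries of both exceeded all parental ones. The transcription factor E2f1 was below both, with medians of 7.02 FPKM in hybrid larvae, 21.7 in D. sechellia larvae and 29.8 in D. simulans larvae, as was the checkpoint protein Bub3, with 21.4 FPKM in hybrid larvae, 45.1 in D. sechellia larvae and 43.3 in D. simulans larvae. Among DNA replication genes, 11 of 25 genes in the table were members, of which 4 stood above both parents and 2 below both. Their median difference was 0.24 from D. sechellia and 0.74 from D. simulans over the members (0.00 and -0.02 from D. sechellia with FPKM as deposited and with the alleles rescaled separately), and -0.53 and -0.56 over all 25 genes of the list tested. RfC38, of the clamp loader, was above both, with differences of 0.56 from D. sechellia and 0.91 from D. simulans and DNApol-alpha60, a primase subunit, with differences of 0.41 from D. sechellia and 0.74 from D. simulans. The calls against D. sechellia were lost for both with FPKM as deposited (0.32 and 0.20), and for DNApol-alpha60 with factors from member genes (0.29). With FPKM as deposited, 0 members of this list stood above both and 1 below, and with factors from member genes 2 above and 3 below.

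Among spliceosome genes, 17 of 19 genes in the table were members, of which 3 stood above both parents and 9 below both. Differences had a median of -0.86 from D. sechellia and -0.35 from D. simulans over the members (0.01 from D. simulans with FPKM as deposited), and -0.89 and -0.41 over all 19 genes of the list tested. U2af38, which recognises the end of introns, had medians of 7.59 FPKM in hybrid larvae, 92.7 in D. sechellia larvae and 48.3 in D. simulans larvae, without overlap, and the core Sm protein SmD3 20.9 FPKM in hybrid larvae, 124 in D. sechellia larvae and 52.3 in D. simulans larvae. All hybrid libraries of Prp38 were above all parental ones, with differences of 1.14 from D. sechellia and 1.39 from D. simulans. Prp19, with overlapping libraries, had differences of 0.36 from D. sechellia and 0.41 from D. simulans. Its call against D. sechellia was lost with FPKM as deposited (0.11, adjusted p = 0.575), and that against D. simulans with factors from member genes (0.17, adjusted p = 0.113). Among genes of dosage compensation and heterochromatin, 14 of 23 genes in the table were members, of which 5 stood above both parents and 4 below both. As a median, the difference was 0.15 from D. sechellia and 0.05 from D. simulans over the members (-0.08 and -0.10 from D. sechellia with FPKM as deposited and with the alleles rescaled separately and -0.01 and -0.17 from D. simulans with the alleles rescaled separately and with factors from member genes), and -0.36 and -0.004 over all 23 genes of the list tested. Su(z)12, of the Polycomb complex that methylates histone H3, was above both, with differences of 1.29 from D. sechellia and 0.90 from D. simulans, and Chrac-14, of a chromatin remodeller, with differences of 1.013 from D. sechellia and 1.83 from D. simulans. The FACT subunits dre4 and Ssrp, which help polymerases through nucleosomes, were below both parents, with differences of -0.74 from D. sechellia and -0.90 from D. simulans, and of -0.59 from D. sechellia and -0.98 from D. simulans.

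Among genes known for hybrid incompatibilities in Drosophila, 2 of 5 genes in the table were members, of which 2 stood above both parents and 0 below both. The median of the differences was 0.47 from D. sechellia and 0.65 from D. simulans over the members, and 0.42 and 0.41 over all 5 genes of the list tested. Lhr ranged from 4.24 to 29.7 FPKM (median 12.8) in hybrid larvae, from 5.79 to 11.4 (median 9.20) in D. sechellia larvae and from 4.89 to 8.75 (median 6.33) in D. simulans larvae. Lhr is a heterochromatin protein that contributes to the death of hybrid males between D. simulans and D. melanogaster. Its hybrid libraries spread to both sides of the parental ranges, with differences of 0.51 from D. sechellia and 0.88 from D. simulans (SE 0.20 each, adjusted p = 0.0286 and 3.83e-04). The call of Lhr against D. sechellia was near the threshold. The difference from D. sechellia missed the threshold when any of 8 libraries was left out. These were the hybrid SS replicates 2 and 3, SO replicate 1, OS replicate 3 and OO replicate 1, and the D. sechellia SS replicate 1, SO replicate 2 and OS replicate 3, with values from 0.43 to 0.48 (adjusted p from 0.0505 to 0.0636). Nup160 ranged from 5.22 to 14.2 FPKM (median 9.77) in hybrid larvae, from 5.09 to 8.16 (median 6.82) in D. sechellia larvae and from 5.33 to 8.64 (median 6.90) in D. simulans larvae. Nup160, a nuclear pore protein, is implicated in incompatibility between the same species, and its hybrid range again overlapped both parents. It differed by 0.42 from D. sechellia and 0.41 from D. simulans (SE 0.11 each, adjusted p = 0.00129 and 0.00134). Neither gene was above both parents with FPKM as deposited or with factors from member genes. The call of Lhr against D. sechellia was also lost with the alleles rescaled separately (0.39, adjusted p = 0.0717) and with only the libraries compared in the fit (0.51, adjusted p = 0.0605).

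The other lists had few members. Among digestive enzymes, 6 of 19 genes in the table were members, of which 1 stood above both parents and 0 below both. The median difference was -0.83 from D. sechellia and 0.88 from D. simulans over the members, and 0.04 and -0.68 over all 18 genes of the list tested. Amy-p and Amy-d were between the parents. In the testis list, 7 of 16 genes in the table were members, of which 1 stood above both parents and 2 below both. Median differences were 0.58 from D. sechellia and 0.36 from D. simulans over the members, and -0.33 and -0.02 over all 16 genes of the list tested. Among ecdysone and juvenile hormone regulators, 4 of 14 genes in the table were members, of which 1 stood above both parents and 2 below both. Their median difference was -0.53 from D. sechellia and -0.60 from D. simulans over the members, and -0.42 and -1.08 over all 13 genes of the list tested. Among late larval ecdysone targets, 3 of 6 genes in the table were members, of which 1 stood above both parents and 1 below both. Differences had a median of -0.40 from D. sechellia and -0.93 from D. simulans over the members, and 0.39 and 0.77 over all 4 genes of the list tested. Among neuron and eye genes, 4 of 20 genes in the table were members, of which 2 stood above both parents and 0 below both. As a median, the difference was 0.80 from D. sechellia and 0.75 from D. simulans over the members, and -0.49 and -0.47 over all 16 genes of the list tested. In the germline and piRNA pathway, 5 of 19 genes in the table were members, of which 1 stood above both parents and 0 below both. The median of the differences was 0.15 from D. sechellia and 0.06 from D. simulans over the members (-0.08 from D. sechellia with FPKM as deposited and -0.16 from D. simulans with factors from member genes), and -0.07 and -0.14 over all 17 genes of the list tested. Egg and ovary genes had 1 member of 17, like D. sechellia, and odorant-binding and chemosensory genes 1 of 110, above both.

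**Figure D5:**
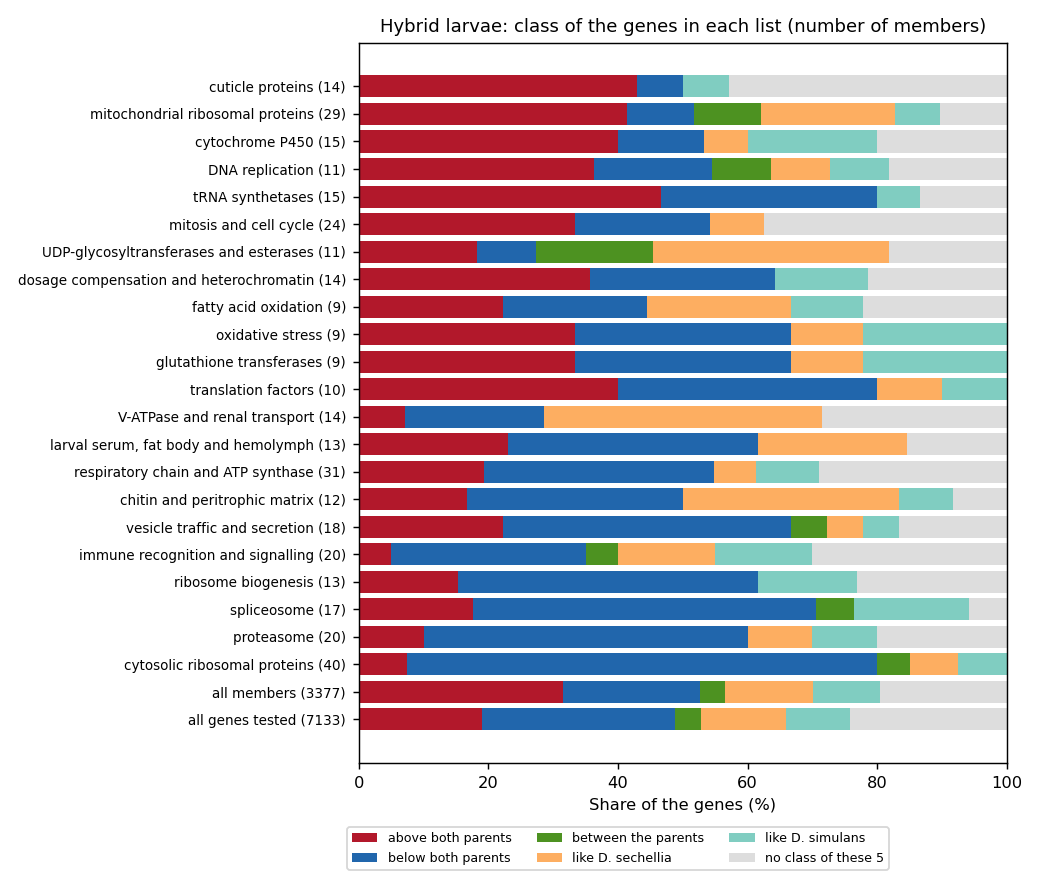
Share of members in each class (horizontal, %) for the gene lists with at least 9 members, ordered from the largest surplus above both parents to the largest below, with all members and all genes tested at the bottom. Cytosolic ribosomal proteins, with 29 of 40 below both parents, stand at the lower end and cuticle proteins, with 6 of 14 above both, at the upper end, although the median difference over all 58 cuticle genes tested was -0.49 from D. sechellia and -0.61 from D. simulans.

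At 19 members, all 12 D. simulans larval libraries were listed at 0 although the D. simulans allele was listed in hybrids, with mean allele levels from 2.35 to 72.6 FPKM (median 9.40). No member was at 0 in all D. sechellia libraries. Of the 19, 10 were classed above both parents, 7 like D. sechellia and 2 between. Ip259 ranged from 87.0 to 216 FPKM in hybrids and from 236 to 479.7 in D. sechellia, with means of 96.3 FPKM for the D. sechellia and 42.8 for the D. simulans allele. Rpb11, a subunit of RNA polymerase II that every cell needs, was another of the 19 and was picked after its values were seen, with a D. simulans allele mean of 72.6 FPKM. CG10337 ranged from 74.6 to 190.2 FPKM in hybrids and from 30.2 to 77.3 in D. sechellia. A gene like Rpb11 listed at 0 throughout can be a failed estimate, so no fold against D. simulans is given for these.

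The media were then looked at one by one, as a description, since the classes were set on the same libraries. Of the 1062 members above both parents, 985 had positive differences from both parents in each of the 4 media histories, and of the 718 below both, 674 had negative ones throughout. With the SS libraries alone (3 per genotype), 1 or both calls were lost for Mps1, mRpS7, ND-B14.7, AlaRS, Cpr49Ab, Sod3, Acsl, Cht2, LpR2, RfC38, DNApol-alpha60, Prp19, Su(z)12, Chrac-14, Ssrp, Vha44, VhaSFD, serp, Lhr and Nup160, with adjusted p from 0.0501 to 0.841. A change of the hybrid difference with the larvae's own medium was called for 2 members against D. sechellia and 2 against D. simulans (limma interaction, 0.112% of all genes tested in each case), where 175 and 113 members had an unadjusted p under 0.05. With the medium of the previous generation, 1 and 3 members were called (0.0841% and 0.126% of all genes), where 145 and 334 had an unadjusted p under 0.05. These calls fell on the 4 genes CG17278, CG31710, Pex14 and Wdr24.

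In the adult libraries, 3182 of the members were tested. Of the larval members above both parents, 70.2% of the 1012 tested were also above both in adults (22% of all genes tested in adults were), and of those below both, 76.9% of 701 were below both (31.7% of all genes). Of the adult members above and below both, 67.9% and 74.1% had the same class in larvae. The hybrid difference from the mean of the parents correlated across genes between the stages (Pearson's r = 0.82, Spearman's rho = 0.78 over 3182 genes, which are not independent and share gene models and processing). Of the other classes, 22.4% of the larval members between the parents (5.44% of all genes tested in adults), 21.1% of those like D. sechellia (10.7%) and 20.4% of those like D. simulans (12.3%) had the same class in adults.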

How the data were processed

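Poly(A) RNA of 72 libraries was sequenced, of which the 36 larval libraries carry the results and the 36 adult libraries give the comparison between stages. The authors deposited a merged table of FPKM per gene, with separate columns for the D. sechellia and the D. simulans allele of each hybrid library. The tools are named as FastQC, Bowtie2 and Cufflinks, per the submitters' processing notes. No source used here gives their versions, a genome build or how a hybrid read was placed on an allele. Read depth behind the FPKM values is unknown, so no counting interval is given.

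The alleles were summed, and each library was divided by its median ratio to the geometric mean over 4545 genes above 0 in all 36 larval libraries. Genes at 1 FPKM or more in at least 3 of the 36 libraries (7133) entered limma 3.58.1 (trend fitted, R 4.3.3) as log2(FPKM + 1), with a mean for each genotype and medium, media weighted equally and Benjamini-Hochberg adjustment over all genes tested. Calls have an adjusted p under 0.05. Interactions with the medium came from the same model. The spread of a gene was estimated once for all 3 genotypes, although it was wider in hybrids. Its SE is therefore the same against either parent. With only the libraries compared in the fit, 1030 members were above both, 676 below both and 113 between. In that fit 511 were like D. sechellia and 395 like D. simulans. The code was tested on simulated data. Summaries used Python 3.11.15 with numpy 2.4.6 and pandas 2.3.3, and plots matplotlib 3.10.9.

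Named genes have a symbol other than a CG number, a mean of at least 5 FPKM in the highest genotype and at least 1 in each. They are the 6 farthest above and below both parents, the 5 farthest between them, the 5 most different from the other parent among genes with a 95% interval within 1.5-fold of the like parent, and the 2 with the smallest adjusted p per list and class where a list has 3 or more members in it. Members of the incompatibility list and the 2 genes at 0 in D. simulans with the highest hybrid level are added. The members and the 37 gene lists were chosen with earlier results of these data known. Alternatives were FPKM as deposited, alleles rescaled separately, no filter, a pseudocount of 0.1, no trend, only the libraries compared, a replicate block, SS libraries only, each library left out and, added after seeing the data, factors from member genes. No reference sequence was used here for the genes, and none is printed. A gene of the ribosomal list is not reported here by name.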

Additional observations from a re-analysis of the deposited data

Results flagged for a closer look

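For 4 members the difference between hybrid and parent changed with the medium (limma interaction, adjusted over all genes tested). CG17278 had medians of 136, 298, 2.29 and 81.8 FPKM in SS, SO, OS and OO hybrids, between 204 and 224 in D. sechellia and between 23.9 and 35.8 in D. simulans. Its hybrid difference was 3.17 higher against D. sechellia and 2.96 higher against D. simulans with octanoic acid in the larvae's own food than with standard food (adjusted p = 6.03e-05 and 1.62e-04). With octanoic acid in the previous generation it changed by -3.54 and -3.12 (adjusted p = 6.95e-06 and 8.12e-05). All 3 OS hybrid libraries were at or below 6.42 FPKM, under every D. sechellia and D. simulans library. The other hybrid libraries ranged from 64.9 to 930 FPKM. The changes of CG17278 with either generation's food thus rest in large part on the OS hybrids, so no size is read from them.

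CG31710 had medians of 49.4, 128, 51.0 and 71.6 FPKM in SS, SO, OS and OO hybrids, against 71.6, 61.4, 89.96 and 81.4 in D. sechellia, and the change with the larvae's own octanoic acid food was 1.17 against D. sechellia (adjusted p = 0.0175). Pex14, a peroxisomal import protein, had medians of 36.9, 29.1, 24.6 and 23.7 FPKM in hybrids, against 23.6, 20.7, 31.2 and 28.8 in D. simulans. Its change with the octanoic acid food of the previous generation was -1.12 against D. simulans (adjusted p = 0.0290). Wdr24, a subunit of a nutrient-sensing complex, changed by -1.93 with the larvae's own and by 1.36 with the previous generation's octanoic acid food against D. simulans (adjusted p = 6.51e-05 and 0.0136). It had medians of 13.5, 10.5, 14.03 and 11.0 FPKM in SS, SO, OS and OO hybrids, against 5.91, 5.61 and 7.78 in SS, SO and OO libraries of D. simulans, and was listed at 0 in all 3 OS libraries of D. simulans. Such a 0 can be a failed estimate, and both changes rest on it, so no size is read from them.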

How the results depend on the processing

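Counts stayed within 1.5 times the reported ones in 70 comparisons with another setting, outside it in 11, and within it in all 324 with a library left out. With FPKM as deposited, 642 members were lower than D. simulans larvae and 228 were between the parents. With SS libraries only, 779 members were higher and 648 lower than D. sechellia, 990 higher and 621 lower than D. simulans, 548 above both, 419 below both, 20 between, 275 like D. sechellia and 182 like D. simulans, which uses 3 libraries per genotype. The causes were not tested. Leaving out each library gave 1320 to 1372 members higher and 971 to 1009 lower than D. sechellia, 1460 to 1505 higher and 984 to 1033 lower than D. simulans, 1032 to 1080 above both, 698 to 725 below both, 114 to 150 between, 427 to 486 like D. sechellia and 316 to 366 like D. simulans. Of the named genes' differences under other settings, 1658 were unchanged in direction and call, 47 lost a call, 4 gained one and lap was called 0.29 above D. simulans. With libraries left out, 6831 were unchanged, 8 lost a call and 1 gained one. With factors from member genes, chosen after seeing the data, 871 members were above both and 868 below both. With the replicate block, 1087 were above both, 730 below both and 136 between. Of 66 same-numbered pairs each, 22, 28 and 39 for replicates 1, 2 and 3 correlated above 0.1, short of every pair, so the numbers were not taken to pair the libraries, and 17 of 36 libraries correlated best with their own number. FPKM alone does not tell how far depth limits low genes.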
